A study of Mus musculus with 16 samples.

Results

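Costimulatory ligands and dendritic cell genes were examined in macrophages isolated from mouse fat. The set was given by name and holds 10 genes: Cd86, Cd80, Cd40, Cd274, Pdcd1lg2, Icosl, Cd83, Ccr7, Flt3 and Zbtb46. Of these, 9 had a probe set in the probe-to-gene table, out of 17097 genes measured; Ccr7 had no entry there and was not analysed here. Where a gene had several probe sets, the one with the largest average over the 16 arrays stands for it.

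All mice carried floxed alleles of Sucnr1, the receptor for extracellular succinate, and were 19 to 21 weeks old. In the knockout (KO, KO-LysM in the labels) Cre recombinase was driven by the lysozyme M promoter, which is active in macrophages, monocytes and neutrophils; the control (WT) carried the floxed alleles alone, so knockout and Cre cannot be told apart. Cells came from subcutaneous (SAT) or visceral (VAT) fat, which gives 4 groups of 4 pools each: WT SAT, WT VAT, KO SAT and KO VAT. In each group, pools 1 and 2 belong to day 1 and pools 3 and 4 to day 2. Cells were selected with CD11b beads after collagenase digestion, although another label speaks of cells positive for the product of Adgre1, and RNA of 300000 cells was amplified over 24 cycles before hybridisation. The labels add the letters NCD to every group without spelling them out. Values are log2 expression summaries per probe set, and their number of arrays limits the precision.

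A T cell that meets its antigen needs further signals from the presenting cell. The products of Cd80 and Cd86 give them by binding CD28 and withhold them by binding CTLA4, ICOS ligand acts on ICOS, and PD-L1 (Cd274) and PD-L2 (Pdcd1lg2) restrain T cells through PD-1. CD40 receives help from T cells that carry CD40 ligand and drives the presenting cell to display more of both CD28 ligands. CD83 appears on mature dendritic cells, CCR7 guides them to lymph nodes, FLT3 is the growth factor receptor of their precursors, and ZBTB46 is a transcription factor that marks conventional dendritic cells among myeloid cells. Macrophages in fat carry several of these ligands too.

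Some features of the arrays bear on every comparison. Sucnr1 lay between 3.52 and 3.55 in the 4 group means, under the background level of 4.78, so its probe set does not check the knockout; this level is the 95th percentile of the means of 41 olfactory receptor genes. The interquartile range of an array averaged 2.20 for WT SAT, 2.30 for WT VAT, 2.52 for KO SAT and 2.49 for KO VAT, so the averages were lower in the control. Within WT VAT it was 2.01 and 2.15 on day 1 and 2.50 and 2.54 on day 2. The knockout arrays ran from 2.36 to 2.63, so the day 2 arrays of WT VAT lay among them. WT VAT pool 1 stood furthest from its group, with a mean correlation of 0.955 to the other pools across probe sets. The depot labels of the genotypes also opposed each other: of 123 genes that passed in both depot comparisons, 100 went opposite ways. Akr1c18, an enzyme of steroid metabolism, was at 8.70 in WT SAT and 4.91 in WT VAT, but at 5.26 in KO SAT and 10.18 in KO VAT. Svs4, a seminal vesicle secretion gene, was at 11.44 in KO SAT, at 3.79 in WT VAT and at 3.76 in KO VAT; in WT SAT it was at 7.30 in pool 2 and from 3.79 to 4.05 in the other pools. Whether the depot labels of 1 genotype were exchanged was not tested. Depots are named as labelled, and KO SAT against WT VAT and KO VAT against WT SAT were compared as well.

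Cd86, Cd274 and Cd83 were lower in visceral than in subcutaneous cells of the knockout, and Cd86 and Cd80 were higher in KO SAT than in WT SAT. A gene is said to have passed, risen or fallen where its adjusted p in limma, with the day as a term, was under 0.05. Between the knockout depots, 3 of 9 members fell in KO VAT (Cd86, Cd274 and Cd83) and 0 rose, beside 2.39% of all genes that fell, 1.92% that rose and 4.32% in either direction. Between the genotypes in SAT, 3 rose with the knockout (Cd86, Cd80 and Cd274) and 2 fell (Pdcd1lg2 and Flt3), beside 16.7% of all genes that rose, 20.0% that fell and 36.7% in all. In VAT only Cd86 fell with the knockout and 0 members rose, beside 5.76% of all genes that fell, 10.2% that rose and 15.9% in all. In WT VAT against WT SAT 0 of 9 passed in limma, beside 1.52% of all genes that rose, 1.32% that fell and 2.84% in all; 3 members had an unadjusted p under 0.05. The difference between the knockout effects in VAT and SAT passed for Cd86 alone among the probe sets used, downward, beside 2.12% of all genes downward, 2.10% upward and 4.22% in all.

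Crossed pairs and overlap of the groups were counted in the same way. Cd274 alone rose in KO SAT relative to WT VAT and 0 members fell, where 4.71% of all genes rose, 2.18% fell and 6.89% passed. Cd274 and Pdcd1lg2 fell in KO VAT relative to WT SAT and 0 rose, where 21.0% of all genes fell, 18.3% rose and 39.3% passed. Groups did not overlap for 3 of 9 members between the knockout depots (10.3% of all genes), 5 between the genotypes in SAT (36.0%), 1 between them in VAT (12.1%) and 1 between the control depots (3.81%). In the crossed pairs this held for 1 member of KO SAT and WT VAT (7.40%) and 2 of KO VAT and WT SAT (39.7%). Fewer cells of a type in a pool and less RNA of a gene per cell cannot be told apart in bulk RNA.

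**Figure D1:**
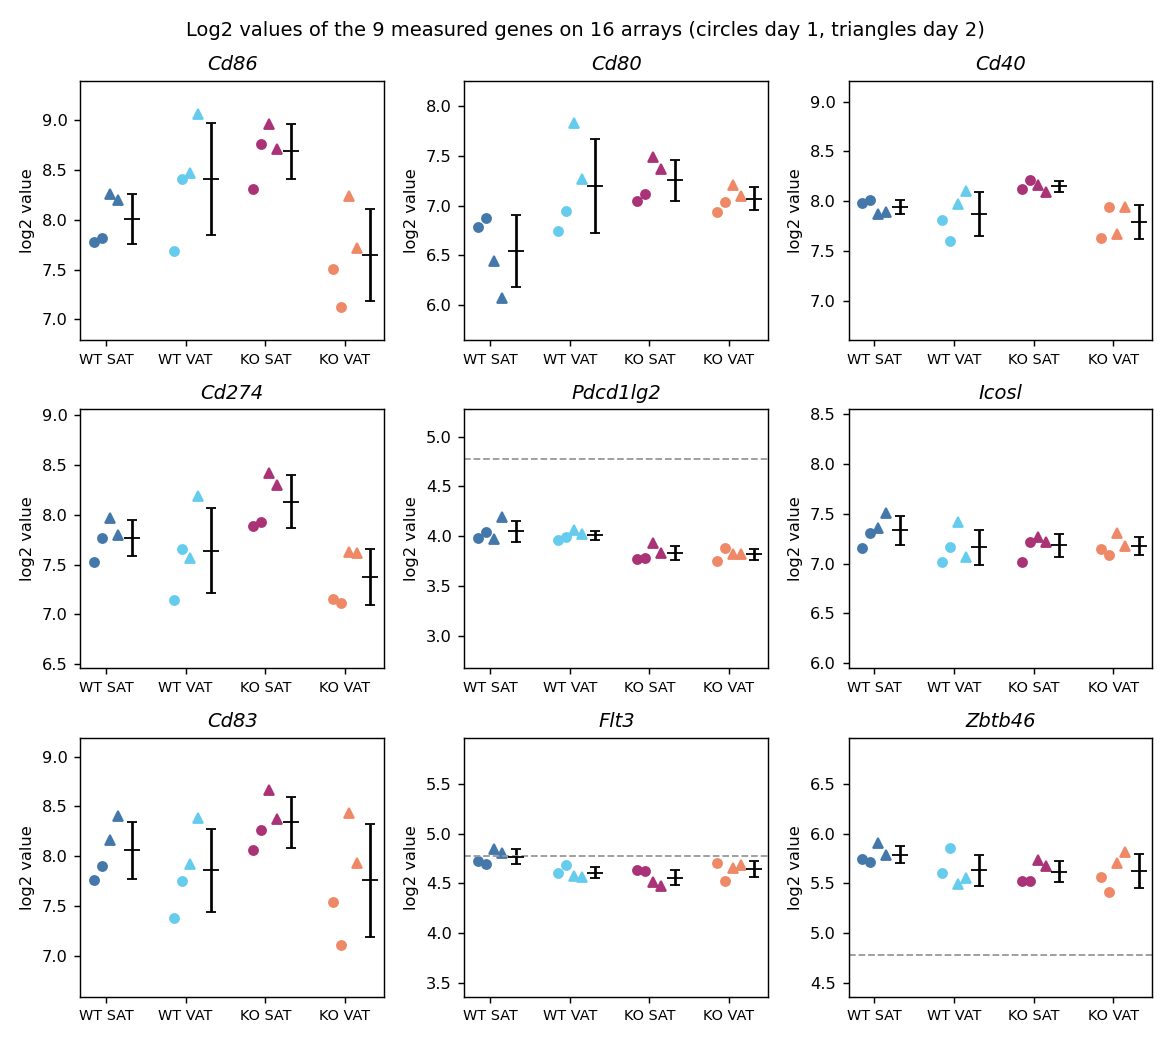
Log2 expression of the 9 measured members on each of 16 arrays. Points are pools (circles day 1, triangles day 2), black bars are the group mean and SD (n = 4), every panel spans the same height, and the dashed line marks the background level of 4.78 where it is in view. Cd86 and Cd274 are highest in KO SAT and lowest in KO VAT, while Pdcd1lg2 lies under the background level throughout.

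Medians describe the set beside all genes. The median log2 change of the members was -0.18 in KO VAT against KO SAT (all genes 0.0024), 0.21 in KO SAT against WT SAT (-0.05), -0.10 in KO VAT against WT VAT (-0.05) and -0.13 in WT VAT against WT SAT (-0.02). For the crossed pairs it was 0.06 in KO SAT against WT VAT (-0.03) and -0.16 in KO VAT against WT SAT (-0.08). The medians over genes include dim ones. Without the lowest 40% by mean they were, in the same order, 0.0014, 0.06, 0.01, -0.0052, 0.06 and 0.02.

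Cd86, the CD28 and CTLA4 ligand present on resting presenting cells, had the widest range of group means among the members. Its log2 values were 7.77, 7.82, 8.26 and 8.20 for WT SAT pools and 7.69, 8.41, 8.47 and 9.06 for WT VAT pools. They were 8.31, 8.76, 8.96 and 8.72 for KO SAT pools and 7.50, 7.13, 8.24 and 7.72 for KO VAT pools. Every KO SAT array lay above every KO VAT array and above every WT SAT array, whereas WT VAT overlapped with all other groups.

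The group means of Cd86 were 8.69 ± 0.27 in KO SAT, 8.41 ± 0.56 in WT VAT, 8.01 ± 0.25 in WT SAT and 7.65 ± 0.46 in KO VAT (SD, n = 4). Neighbours in this order did not pass against each other. Cd86 was 2.06-fold lower in KO VAT than in KO SAT (log2 change -1.04 ± 0.18, SE, adjusted p = 0.00353), with -1.22 on day 1 alone and -0.86 on day 2 alone, neither of which passed. It fell by 0.76 ± 0.18 from WT VAT to KO VAT (adjusted p = 0.0144; -0.73 and -0.79 by day), which did not pass without KO VAT pool 2 (-0.67) or when the KO SAT and WT SAT arrays were left out (adjusted p = 0.0602), and was at -0.37 with the mean of its probe sets (adjusted p = 0.065). It rose by 0.67 ± 0.18 from WT SAT to KO SAT (adjusted p = 0.0135; 0.74 and 0.61 by day), but was at 0.34 with the interquartile range of each array as a term (adjusted p = 0.483) and at 0.34 after quantile normalization (adjusted p = 0.122). Without the day term neither genotype comparison passed (adjusted p = 0.0902 in VAT and 0.0726 in SAT).

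The knockout difference of Cd86 had opposite signs in the depots as labelled. The difference between them was -1.44 ± 0.26 (adjusted p = 0.00351), -1.47 on day 1 alone and -1.40 on day 2 alone. It passed with each array left out in turn, and not without the day term (adjusted p = 0.0534) or on day 1 alone. In WT VAT against WT SAT the Cd86 change was 0.39 ± 0.18 and did not pass (adjusted p = 0.332). A second Cd86 probe set, at group means of 4.60 (WT SAT) to 4.96 (KO SAT), did not follow in VAT: its knockout effect was 0.36 ± 0.12 in SAT (adjusted p = 0.0290) and 0.02 ± 0.12 in VAT (adjusted p = 0.919). Their difference of -0.34 ± 0.16 did not pass (adjusted p = 0.403).

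Cd80, the other CD28 and CTLA4 ligand, which is induced on activation, was lowest in WT SAT. Its log2 values were 6.78, 6.87, 6.45 and 6.08 for WT SAT pools, 6.75, 6.94, 7.83 and 7.27 for WT VAT pools, 7.04, 7.12, 7.48 and 7.36 for KO SAT pools, and 6.94, 7.03, 7.21 and 7.09 for KO VAT pools. The WT SAT arrays lay below all arrays of both knockout groups, and day 2 held both the lowest WT SAT pools and the highest WT VAT pools. Cd80 rose by 0.71 ± 0.20 from WT SAT to KO SAT (1.63-fold, adjusted p = 0.0174), with 0.25 on day 1 and 1.16 on day 2. Leaving out WT SAT pool 4 (0.51) ended this call, as did array spread as a term, where the change was 0.03 (adjusted p = 0.955). Cd80 was at 0.65 ± 0.20 in WT VAT against WT SAT (adjusted p = 0.111) and at 0.52 ± 0.20 in KO VAT against WT SAT (adjusted p = 0.0521, and -0.10 with array spread as a term), neither of which passed. The control depots differed by 0.02 on day 1 and by 1.29 on day 2, and the latter passed alone (adjusted p = 0.00465). The Cd80 difference between the knockout effects, -0.83 ± 0.29, did not pass either (adjusted p = 0.154), with -0.11 on day 1 and -1.56 on day 2, which passed alone (adjusted p = 0.0129). The control depot value also passed after quantile normalization (adjusted p = 0.0369), with array weights (adjusted p = 0.0479) and without the 4 arrays of smallest spread (adjusted p = 0.0236); the last 2 settings also gave a call for the difference (adjusted p = 0.0226 and 0.0235). Cd80 has 3 other probe sets, whose means per group ran from 3.45 to 5.71; averaged with them, the knockout change in SAT was 0.17 (adjusted p = 0.0743).

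**Figure D2:**
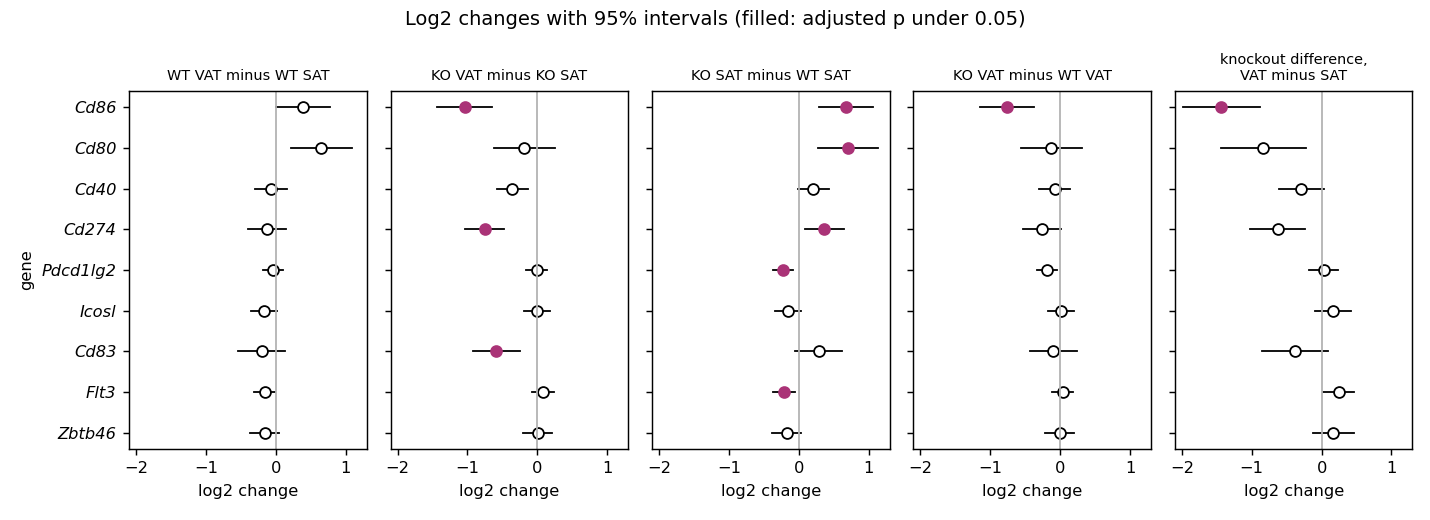
Log2 changes of the 9 members (points) with 95% intervals (lines) in the 4 labelled comparisons and for the difference between the knockout effects; filled points have an adjusted p under 0.05. Cd86 is the one member filled in 4 of the panels, with -1.04 between the knockout depots and 0.67 between the genotypes in SAT, and no member is filled for WT VAT minus WT SAT.

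The PD-1 ligands are encoded by neighbouring genes on chromosome 19, but only one of them was above background. The 250 bases upstream of each annotated start (RefSeq, GRCm38.p6) are shown because the genes share a locus and a receptor and differed in detection. They lie at chr19:29367188-29367437 and chr19:29410669-29410918, both on the plus strand, and capitals mark matches to 3 motifs searched on both strands.
Cd274: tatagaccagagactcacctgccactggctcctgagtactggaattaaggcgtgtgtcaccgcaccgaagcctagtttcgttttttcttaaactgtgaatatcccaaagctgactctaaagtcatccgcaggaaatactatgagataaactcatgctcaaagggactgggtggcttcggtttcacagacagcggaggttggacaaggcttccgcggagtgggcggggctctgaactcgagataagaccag
Pdcd1lg2: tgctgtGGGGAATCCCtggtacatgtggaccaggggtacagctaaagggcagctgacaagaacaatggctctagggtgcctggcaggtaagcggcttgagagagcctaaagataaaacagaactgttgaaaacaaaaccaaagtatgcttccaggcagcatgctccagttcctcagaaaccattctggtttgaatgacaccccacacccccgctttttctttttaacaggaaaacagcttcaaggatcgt
The motifs were the interferon response core (GAAA repeated after any 2 bases), the PU.1 core GAGGAAGT and the kappaB element. They are held by 3.0%, 2.4% and 3.9% of 32851 upstream windows of this length. The Pdcd1lg2 window holds 1 match, a kappaB element that reads on both strands 244 to 235 bases before the start, and these letters are not in the Cd274 window. Promoter sequences of 6 of the 9 measured members were in the table, and none of the other 4 windows holds a match.

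Cd274 encodes PD-L1, the PD-1 ligand that interferons induce in many cells. Its log2 values were 7.53, 7.77, 7.97 and 7.79 for WT SAT pools, 7.15, 7.65, 7.57 and 8.19 for WT VAT pools, 7.88, 7.93, 8.42 and 8.30 for KO SAT pools, and 7.15, 7.12, 7.63 and 7.62 for KO VAT pools. All KO SAT arrays lay above all KO VAT arrays, and no other pair of groups was free of overlap. The order of the means was KO SAT (8.13 ± 0.27), WT SAT (7.76 ± 0.18), WT VAT (7.64 ± 0.43) and KO VAT (7.38 ± 0.28). WT SAT and WT VAT did not pass against each other, nor did WT VAT and KO VAT.

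Cd274 fell by 0.75 ± 0.13 from KO SAT to KO VAT (1.69-fold lower, adjusted p = 0.00327), with -0.77 on day 1 and -0.74 on day 2; without the day term it did not pass (adjusted p = 0.0591). It rose by 0.37 ± 0.13 from WT SAT to KO SAT (adjusted p = 0.0396; 0.26 and 0.48 by day), by 0.49 ± 0.13 in KO SAT against WT VAT (adjusted p = 0.0395), and fell by 0.39 ± 0.13 from WT SAT to KO VAT (adjusted p = 0.0317). Of 32 other settings, 15 ended the first of these calls, 22 the second and 13 the third. The first was lost on leaving out WT SAT pool 1, 3 or 4, any KO SAT pool or KO VAT pool 3 (0.30 to 0.39), and it was at 0.02 after quantile normalization (adjusted p = 0.887) and 0.11 with array spread as a term (adjusted p = 0.792). The difference between its knockout effects, -0.63 ± 0.18, did not pass (adjusted p = 0.0766).

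Pdcd1lg2 encodes PD-L2, which interleukin-4 induces in macrophages. Its values ran from 3.98 to 4.20 on WT SAT arrays, from 3.97 to 4.07 on WT VAT, from 3.78 to 3.93 on KO SAT and from 3.75 to 3.89 on KO VAT arrays, all under the background level. The knockout arrays lay below the control arrays with no overlap in any of the 4 pairs of groups. Pdcd1lg2 passed for the knockout effect in SAT (-0.22 ± 0.07, adjusted p = 0.0231) and for KO VAT relative to WT SAT (-0.23 ± 0.07, adjusted p = 0.0176). It did not pass for the knockout effect in VAT (-0.19 ± 0.07, adjusted p = 0.0649) or for KO SAT relative to WT VAT (-0.18 ± 0.07, adjusted p = 0.0918). The effect in SAT was -0.11 after quantile normalization (adjusted p = 0.186), -0.13 with each array centred on its median (adjusted p = 0.131) and -0.17 with array spread as a term (adjusted p = 0.338). For KO VAT relative to WT SAT the first 2 of these settings gave -0.13 and -0.14, and neither passed. At this brightness the values give no size of a change in PD-L2 transcript.

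Icosl, the ICOS ligand gene, passed in none of the 7 comparisons. Its values were 7.16, 7.30, 7.36 and 7.51 for WT SAT pools, 7.01, 7.16, 7.42 and 7.07 for WT VAT pools, 7.02, 7.22, 7.27 and 7.22 for KO SAT pools, and 7.15, 7.09, 7.30 and 7.17 for KO VAT pools. All groups overlapped, and the group means spanned 0.17. A second Icosl probe set, at group means of 4.86 to 5.23, was at -0.37 ± 0.11 between the genotypes in SAT and passed in the fit over probe sets (adjusted p = 0.0212).

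Cd40, the receptor for T cell help, had a narrow range. Its values were 7.98, 8.01, 7.87 and 7.89 for WT SAT pools, 7.81, 7.60, 7.97 and 8.11 for WT VAT pools, 8.12, 8.22, 8.16 and 8.09 for KO SAT pools, and 7.63, 7.94, 7.67 and 7.94 for KO VAT pools. KO SAT lay above WT SAT and KO VAT on every array, but the changes did not pass: Cd40 was at -0.36 ± 0.11 in KO VAT against KO SAT (adjusted p = 0.0813) and at 0.28 ± 0.11 in KO SAT against WT VAT (adjusted p = 0.0967). The second Cd40 probe set passed in the fit over probe sets for KO VAT relative to KO SAT (-0.37 ± 0.08, adjusted p = 0.0188), for the knockout effect in SAT (0.24 ± 0.08, adjusted p = 0.0386) and for the difference between the knockout effects (-0.48 ± 0.12, adjusted p = 0.0345). With the mean of both probe sets, KO VAT relative to KO SAT was at -0.36 and passed (adjusted p = 0.0170).

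Cd83 encodes a surface glycoprotein of mature dendritic cells that activated macrophages and B cells also carry. Its values were 7.76, 7.90, 8.16 and 8.40 for WT SAT pools, 7.37, 7.75, 7.92 and 8.38 for WT VAT pools, 8.06, 8.26, 8.67 and 8.38 for KO SAT pools, and 7.54, 7.11, 8.44 and 7.94 for KO VAT pools. The groups overlapped, and in each group both day 2 arrays were higher than both day 1 arrays. Cd83 fell by 0.59 ± 0.16 from KO SAT to KO VAT at the edge of the threshold (adjusted p = 0.0492), with -0.84 on day 1 and -0.34 on day 2. It did not pass in 21 of 32 other settings, among them those without KO SAT pool 1, 2 or 3 (-0.58, -0.51 and -0.57) and without KO VAT pool 1, 2 or 4 (-0.61, -0.45 and -0.55). In KO SAT against WT VAT it was at 0.48 ± 0.16 and did not pass (adjusted p = 0.0677).

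Zbtb46, the transcription factor gene of conventional dendritic cells, was above background and Flt3, the growth factor receptor gene, was not. The Zbtb46 values were 5.75, 5.72, 5.91 and 5.78 for WT SAT pools, 5.61, 5.86, 5.50 and 5.56 for WT VAT pools, 5.53, 5.53, 5.74 and 5.68 for KO SAT pools, and 5.56, 5.42, 5.71 and 5.82 for KO VAT pools. All groups overlapped and this Zbtb46 probe set passed in none of the 7 comparisons. The other Zbtb46 probe sets had group means of 3.53 to 4.54, under the background level. Their knockout effects in SAT were 0.26, 0.37 and 0.20, against -0.17 for the probe set used, and none passed. The last of them passed in the fit over probe sets for KO VAT relative to WT SAT (0.21 ± 0.07, adjusted p = 0.0436). Flt3 ran from 4.69 to 4.85 on WT SAT arrays, from 4.57 to 4.69 on WT VAT, from 4.47 to 4.63 on KO SAT and from 4.52 to 4.70 on KO VAT arrays, with every group mean under the background level. It passed for the knockout effect in SAT (-0.21 ± 0.07, adjusted p = 0.0361; -0.08 on day 1 and -0.34 on day 2), and leaving out WT SAT pool 3 or 4 (-0.18 and -0.19) or KO SAT pool 1, 3 or 4 (-0.23 to -0.18) ended the call. At 4.77 and 4.56 these group means give no size of a change.

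Other dendritic cell genes were read from lists. The counts of this and the later lists stand beside the shares of all genes. In KO SAT against WT SAT 16.7% of all genes rose and 20.0% fell, and in KO VAT against KO SAT 1.92% rose and 2.39% fell. Among type 1 conventional dendritic cell genes, 11 of 12 were measured, and Xcr1, Naaa and Gcsam were under the background level in every group mean. With the knockout in SAT, 3 rose and 2 fell: the adhesion gene Cadm1 rose by 1.93 (adjusted p = 3.87e-05), the RNA sensor gene Tlr3 by 1.29 and Ifi205 by 0.53, while the integrin gene Itgae fell by 0.68. In KO VAT against KO SAT 0 rose and 1 fell, Cadm1 at -1.26. From WT VAT to KO VAT 0 rose and 2 fell, beside 10.2% of all genes that rose and 5.76% that fell. Batf3, a transcription factor gene of these cells, fell by 0.54 there, to a KO VAT mean of 4.77 at the background level.

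Of 11 type 2 genes measured, many of which macrophages share, 0 rose and 2 fell in KO VAT against KO SAT, led by the integrin gene Itgax at -1.04 (adjusted p = 0.00273). Itgax rose by 0.89 from WT SAT to KO SAT, where 1 rose and 3 fell: Cd7 was at -0.58, the lectin gene Cd209a at -0.36 and S100a4 at -1.12. The KO SAT means of these 3 fallen genes (4.72, 4.66 and 4.21) lay under the background level, so the values give no size of the falls. Of 16 genes of mature and migratory dendritic cells, 1 rose and 2 fell in KO VAT against KO SAT. Slco5a1 rose by 1.14 (adjusted p = 0.00067) from a KO SAT mean of 4.71, under the background level, while Epsti1 was at -0.99. Fscn1, the actin-bundling gene of mature dendritic cells, fell by 0.76, and rose by 0.79 from WT SAT to KO SAT (adjusted p = 0.00234), where 5 rose and 4 fell. The chemokine gene Ccl19 fell by 0.97 there, and Il12b was under the background level in every group. Fscn1 was at 0.03 in KO SAT against WT VAT and at 0.03 in KO VAT against WT SAT, and passed in neither.

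Plasmacytoid and lineage genes completed the lists. Of 9 plasmacytoid genes 1 rose and 0 fell in KO VAT against KO SAT, and of 11 lineage genes 0 rose and 1 fell, Spi1 (PU.1, a master regulator of myeloid cells) at -0.67. In KO SAT against WT SAT the counts were 1 and 4, and 0 and 5. The list medians for KO VAT against KO SAT were -0.06 for type 1, -0.02 for type 2, 0.03 for mature, 0.06 for plasmacytoid and 0.07 for lineage genes, beside 0.0024 over all genes.

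**Figure D3:**
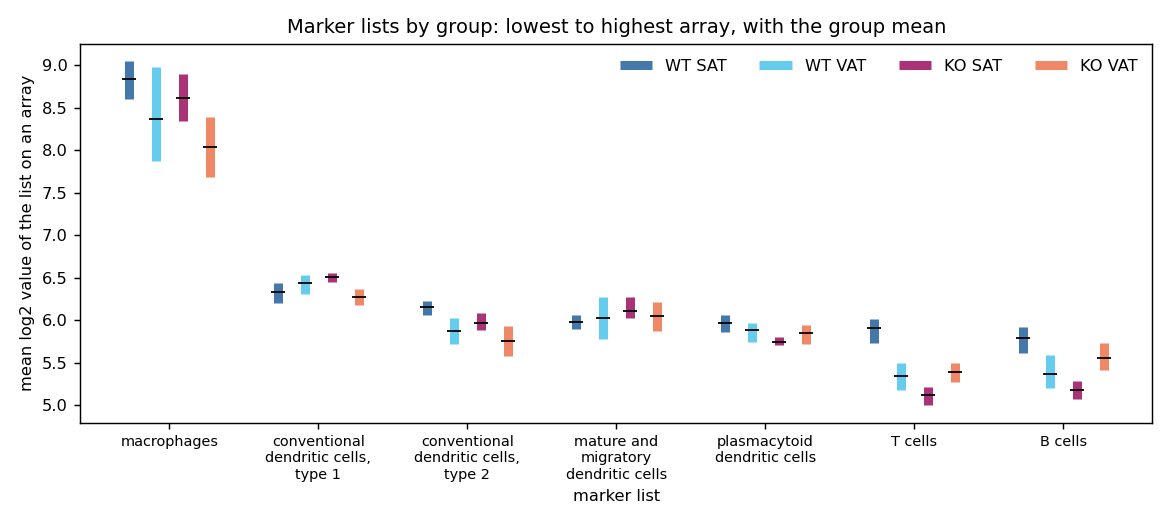
Mean log2 value of 7 marker lists on each array; bars run from the lowest to the highest of 4 arrays of a group and black ticks are the group means. Macrophage markers are lowest in KO VAT (7.69 to 8.39) and T cell markers highest in WT SAT (5.74 to 6.01).

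Macrophage markers moved with Cd86 and Cd274 between the knockout depots. Of 12 listed, 11 were measured, all above the background level; 0 rose and 5 fell in KO VAT against KO SAT, with Cd68 at -0.64, Cd14 at -0.95, Fcgr1 at -0.69 and the macrophage surface gene Adgre1 at -0.86, and a list median of -0.58. The mean of the 11 markers ran from 8.34 to 8.90 on KO SAT arrays and from 7.69 to 8.39 on KO VAT arrays, and from 8.61 to 9.05 in WT SAT and 7.88 to 8.98 in WT VAT. With that mean as a term, an alternative chosen after the data had been seen, the KO VAT against KO SAT values were -0.47 for Cd86 (adjusted p = 0.153), -0.33 for Cd274 (adjusted p = 0.129) and -0.17 for Cd83 (adjusted p = 0.655), so 0 members passed.

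The Cd86 differences between genotypes passed with that term. With it, 49.1% of all genes passed between the genotypes in SAT and 31.4% in VAT. For the difference between the knockout effects 5.07% of all genes passed, and between the control depots 2.63%. Lyz2, the gene whose promoter drives Cre, is 1 of the 11 markers and fell with the knockout, by 0.64 in SAT and by 0.58 in VAT. Cd86 was at 0.91 for the knockout effect in SAT (adjusted p = 0.000138), at -0.43 for that in VAT (adjusted p = 0.0189), and at -1.34 for the difference between the knockout effects (adjusted p = 7.83e-05). In WT VAT against WT SAT it was at 0.87 and passed (adjusted p = 0.00456). Without Lyz2 in the term these 4 values were 0.85, -0.48, -1.33 and 0.83, and all passed. Of all genes, 50.4% then passed between the genotypes in SAT and 34.1% in VAT. This term too was chosen after the data had been seen.

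**Figure D4:**
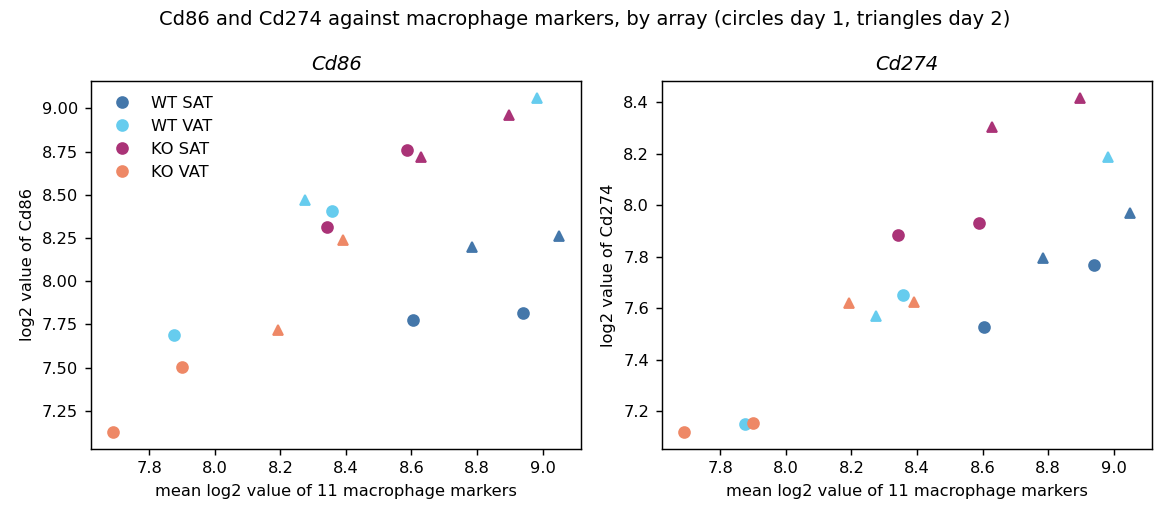
Log2 values of Cd86 (left) and Cd274 (right) against the mean log2 value of 11 macrophage markers on each of 16 arrays (circles day 1, triangles day 2). The 4 WT SAT arrays, with marker means from 8.61 to 9.05, have Cd86 values of 7.77 to 8.26, below KO SAT arrays of 8.31 to 8.96; KO VAT pool 2 is lowest on both axes for both genes.

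Markers of T and B cells also differed between the groups, and their part in the results was not tested. B cells also carry several of the members, among them Cd40, Cd80, Cd83 and Icosl. Of 12 T cell markers, 3 rose and 0 fell in KO VAT against KO SAT, with Cd3e at 0.81, and 1 rose and 11 fell in KO SAT against WT SAT, with Cd3d at -1.34 and Cd3g at -1.68. Of 11 B cell markers, 1 rose (Ebf1, by 0.87) and 0 fell in the first of these. Cd79a (0.67, adjusted p = 0.122) and Cd79b (0.66, adjusted p = 0.0928) did not pass there. In the second 0 rose and 7 fell, with Cd79a at -1.44 and Cd79b at -1.29. The mean of the B cell markers ran from 5.07 to 5.29 on KO SAT arrays and 5.41 to 5.73 on KO VAT arrays. On WT SAT arrays it ran from 5.62 to 5.92 and on WT VAT arrays from 5.20 to 5.58. Among the members, Cd86, Cd80, Cd40, Cd274 and Cd83 had their highest group mean in KO SAT. Pdcd1lg2, Icosl, Flt3 and Zbtb46 had it in WT SAT. Whether B cells contributed to any of these values was not tested. Cd5, Zap70, Ms4a1 and Bank1 were under the background level in every group.

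The receptors that these ligands meet on T cells were mostly under the background level. Of 13 measured, 7 were under it in every group: Cd28, Ctla4, Pdcd1, Cd40lg, Cd27, Cd226 and Lag3. Icos, the receptor of ICOS ligand, had group means of 6.76 (WT SAT), 4.96 (WT VAT), 4.53 (KO SAT) and 5.78 (KO VAT) log2 units, with the highest in WT SAT. It fell by 2.23 from WT SAT to KO SAT (adjusted p = 0.000144) and rose by 1.25 from KO SAT to KO VAT. Its KO SAT mean lay under the background level of 4.78, so the values give no size of these changes. For the list, 0 rose and 7 fell in KO SAT against WT SAT, and 1 rose and 0 fell in KO VAT against KO SAT. Among the 7 fallen were Cd28, Pdcd1 and Cd27, which were under the background level in every group.

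Of 15 other genes listed with the B7 and related ligands, 12 were measured. Icam1, the adhesion ligand of LFA-1, fell by 1.35 from KO SAT to KO VAT (adjusted p = 0.00141), rose by 1.56 from WT SAT to KO SAT, rose by 1.37 from WT SAT to WT VAT and fell by 1.16 from WT VAT to KO VAT. Its knockout effects differed by -2.72 (adjusted p = 4.45e-05), in the direction of Cd86. In the crossed pairs Icam1 did not pass. It was at 0.19 in KO SAT against WT VAT (adjusted p = 0.527) and at 0.21 in KO VAT against WT SAT (adjusted p = 0.410). Vsir, the inhibitory ligand VISTA, fell by 0.50 from KO SAT to KO VAT, where 1 rose (Btla, by 0.97) and 2 fell. In KO SAT against WT SAT 3 rose (Icam1, Cd200 and Pvr) and 5 fell. The fallen genes were Btla and the dim Cd276, Vtcn1, Btnl2 and Btn1a1, of which the dim ones lay under the background level in every group. Btla lay under that level in KO SAT (4.16), so the values give no size of its changes. The TNF family ligands, among them those of OX40 and 4-1BB, had 8 of 10 measured and 5 under the background level (Tnfsf4, Cd70, Tnfsf8, Tnfsf13 and Tnfsf11), and 0 passed in limma between the knockout depots (0 at an unadjusted p under 0.05).

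Signalling genes above the members were also listed. Of 14 genes from CD40 to NF-kB, 0 rose and 3 fell in KO VAT against KO SAT, with Traf5 at -0.51, the inhibitor gene Nfkbie at -0.68 and Traf1 at -0.55; 5 rose and 1 fell in KO SAT against WT SAT, with Nfkbie at 0.69, Birc3 at 0.80, Relb at 0.53 and Map3k14, a kinase gene of the pathway, at -0.40. Of 13 interferon signalling genes, 0 rose and 5 fell in KO VAT against KO SAT, with Irf1, a transcription factor that acts on Cd274, at -0.67. In KO SAT against WT SAT 8 rose and 0 fell, with Gbp2 at 1.82 and Jak2 at 1.02. The medians in KO SAT against WT SAT were 0.22 and 0.45, beside -0.05 over all genes. Nearly all genes of these lists were above background, and without the lowest 40% by mean the median over genes was 0.06.

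Genes with the most similar profiles were found by the mean absolute difference over 16 arrays after each gene was centred on its mean, for the 6 members that passed in a pairwise comparison. Nearest to Cd86 were Bcl2a1a (0.13 log2 units), Cd52 (0.13) and Tlr2 (0.15), where the median over all genes was 0.47. Nearest to Cd274 were Gngt2 (0.09), Ncf4 (0.09) and Spi1 (0.10), beside a median of 0.36. Nearest to Cd83 were Themis2, Apobec3 and Sema4d (0.11 to 0.12), and to Cd80 Mprip, 4930533K18Rik and Tnfrsf10b (0.13 to 0.14). The dim Pdcd1lg2 and Flt3 lay nearest to Tmco4 and Polr3gl.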

How the data were processed

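Expression was measured on 16 Affymetrix perfect-match arrays. Deposited by the authors were log2 values per probe set, for which the submitters' processing notes name RMA and affy; versions are not given in the sources used here. RMA commonly equalises distributions between arrays, so a shift of most genes could be hidden. Of 45141 probe sets, 28898 named 1 gene, 551 several, and 15588 that are not controls none. Linear models (limma 3.58.1, R 4.3.3, lmFit and eBayes) were fitted to all genes and arrays with group and day. A gene passed at a two-sided Benjamini-Hochberg adjusted p under 0.05 over 17097 genes, or over 28898 probe sets where a second probe set is given. The fit was tested on simulated data. Nothing says that pools hold separate animals, so p-values measure only the spread between pools. Members and lists were chosen with earlier results of these data known. List genes named are up to 4 that passed with the smallest p per comparison, genes under background, and 3 nearest profiles per member. Svs4, Akr1c18 and, in KO SAT against WT SAT, H2-Aa, H2-Eb1 and H2-Ab1 were named after their values were seen. Alternatives covered the day term, normalization, array spread, probe set choice, filters and each array left out.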

Additional observations from a re-analysis of the deposited data

Results flagged for a closer look

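The knockout difference of Cd86 was unlike in the depots as labelled: it was 0.67 in SAT and -0.76 in VAT, and the test of the difference itself gave -1.44 ± 0.26 (SE, n = 4 pools per group, limma adjusted p = 0.00351). All 4 KO SAT arrays lay above all 4 WT SAT arrays, while KO VAT and WT VAT overlapped. The value ranged from -1.60 to -0.89 over 31 other settings, of which 2 did not pass. A second Cd86 probe set was at -0.34 and did not pass. Among 36 groups of 4 values, 0 held an array far from the other 3 by Dixon's criterion, which chance would meet in about 1 of 20.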

How the results depend on the processing

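Counts of members that passed are given with the share of all genes that passed under the same setting, and the cause of a moved count was not tested. The main counts were 0 for WT VAT against WT SAT, 3 for KO VAT against KO SAT, 5 for KO SAT against WT SAT, 1 for KO VAT against WT VAT, 1 for KO SAT against WT VAT, 2 for KO VAT against WT SAT and 1 for the difference between knockout effects. In that order they were 0, 1, 2, 0, 0, 1 and 0 without the day term (1.24%, 2.47%, 20.8%, 5.77%, 0.298%, 25.9% and 2.66% of all genes). On day 1 alone they were 0, 0, 0, 0, 2, 0 and 0 (1.16%, 1.53%, 3.40%, 31.4%, 23.5%, 9.95% and 1.93%), so 2 of 9 stood beside a share of 23.5%. On day 2 alone they were 1, 0, 2, 0, 0, 1 and 2 (24.7%, 1.16%, 38.0%, 1.94%, 0.105%, 34.8% and 11.1%).

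Quantile normalization gave 1 for WT VAT against WT SAT (6.71%), 2 for KO SAT against WT SAT (30.5%), 2 for KO VAT against WT VAT (18%), 0 for KO SAT against WT VAT (6.24%) and 5 for KO VAT against WT SAT (34.9%). Array spread as a term gave 0, 2, 0 and 1 in the last 4 of these (7.65%, 10.8%, 3.84% and 10.9%). Without the 4 arrays of smallest spread the counts were 2 between the control depots (12.5%), 2 between the genotypes in SAT (31.4%), 0 and 1 in the crossed pairs (1.63% and 34.4%) and 3 for the difference (10.7%). The macrophage marker mean as a term, chosen after seeing the data, gave 1 and 0 between the control and knockout depots (2.63% and 1.59%), 0 in both crossed pairs (1.62% and 37.4%) and 2 for the difference (5.07%). Without Lyz2 in it, these counts were again 1, 0, 0, 0 and 2 (3.89%, 1.99%, 1.35%, 43.6% and 5.15%), with 2 between the genotypes in VAT (34.1%). Fits on the compared groups alone gave 0 between the genotypes in VAT (7.24%), and 0 and 4 in the crossed pairs (1.20% and 46.4%). Median centring gave 3 for KO SAT against WT SAT (30.9%) and 0 for KO VAT against WT SAT (32.4%), and the filter on the lowest 40% gave 3 for KO SAT against WT SAT (40%). Array weights gave 1 between the control depots (4.01%) and 3 for the difference (7.07%), and trend with robust settings gave 2 between the genotypes in VAT (16.8%).

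With each array left out, counts ran from 0 to 2, 2 to 3, 1 to 5, 0 to 2, 0 to 3, 0 to 3 and 1 to 3. The share of all genes moved with the array too. In the same order it was 10%, 6.16%, 46.6%, 9.01%, 1.7%, 47.8% and 7.66% without WT VAT pool 1. Leaving out WT SAT pool 4 gave 2.13%, 4.92%, 18%, 22%, 13.7%, 22.5% and 3.93%. For KO SAT against WT VAT it was 1.04% without KO SAT pool 3 and 19.8% without WT VAT pool 4. Signs turned for Cd80 in KO VAT against WT SAT (-0.0965 with array spread) and for Cd274 there (0.21 with the macrophage term and 0.15 without Lyz2 in it). With pool number as a replicate block the counts were 0, 2, 4, 1, 0, 2 and 1 (2.12%, 3.66%, 32.6%, 12.6%, 3.77%, 35.4% and 3.61%). Deviations of same-numbered pools correlated from -0.48 to 0.63 over all pairs of groups. They ran from 0.17 to 0.59 between KO SAT and KO VAT, and from -0.48 to 0.47 between WT SAT and WT VAT. Pools of a number also share a day, so these values cannot tell whether SAT and VAT pools of a number came from the same mice. Pdcd1lg2 and Flt3 were limited by signal over background.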

Other observations

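Other lists show further differences beside the costimulatory genes. Of 10 MHC class II genes, which present the antigen that costimulation accompanies, 0 rose and 4 fell in KO VAT against KO SAT, with H2-Eb1 at -1.10 (limma adjusted p = 0.000131), Cd74 at -0.90, H2-Ab1 at -0.67 and H2-Aa at -0.55. In KO SAT against WT SAT 3 rose and 5 fell: H2-Aa, H2-Eb1 and H2-Ab1 rose by 0.40, 0.45 and 0.36, while H2-DMb2 and H2-Ob, chaperones typical of B cells, fell by 1.15 and 1.24.

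Monocyte markers (8 of 10 measured) had 1 risen and 1 fallen in KO VAT against KO SAT, Plac8 by 0.85 and Vcan by 0.56, and Chil3, Spn and Treml4 lay under the background level in every group. Neutrophil markers (8 of 10 measured) had 1 risen and 0 fallen, S100a8 by 0.84 from a KO SAT mean of 4.04, under the background level. Natural killer cell markers, with 7 of 10 under the background level, had 0 that passed in limma between the knockout depots and 1 at an unadjusted p under 0.05. In KO SAT against WT SAT the counts risen and fallen were 1 and 3, 0 and 4, and 0 and 4, beside 16.7% of all genes that rose and 20.0% that fell. Of the fallen natural killer genes, Klrd1, Gzmb and Nkg7 lay under the background level in every group.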
